A study of Mus musculus with 12 samples.

Results

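The genes described here are a list of 44 interferon-stimulated genes, followed in RNA from endothelial cells of the brain, which form the inner wall of its blood vessels. Such transcripts are known to rise when a cell meets interferon. The list also holds Ifnar1 and Ifnar2, subunits of a receptor for interferon. A listed gene counted as a member when its mean normalized count over the 12 samples was at least 10, which kept 43 of the 44, out of 12777 genes above that level and 24015 symbols in all. Mx1 was the one below it. The samples were 6 pools from old mice, aged 19 months (old 1, 2, 3, 4, 7 and 9), and 6 pools from young mice, aged 3 months (young 1, 2, 3, 4, 5 and 9). All mice were wild-type C57BL/6, and the labels name no allele or agent in either age. Each pool held cortex and hippocampus of 2 mice, from which endothelial cells were sorted by flow cytometry, with cDNA made by SMART-seq v4 and libraries by Nextera XT. The labels do not give the sex of the mice or the sorting markers. Nor do they state that no mouse was shared between pools, so a p-value here refers to variation among the 12 samples as deposited.

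Interferons reach the nucleus by short routes. The receptor for interferon alpha and beta, made of IFNAR1 and IFNAR2, signals through the kinases JAK1 and TYK2 to a complex that holds STAT2 and IRF9 and binds the interferon-stimulated response element. Interferon gamma uses another receptor and leads to binding at the gamma-activated site. The induced proteins sense foreign RNA, block translation and viral entry, mark or attack the vacuoles of intracellular microbes, and switch the signal off again, and brain endothelial cells are known to carry these receptors and to respond to interferon.

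The promoters show what the members share in sequence. RefSeq promoters (250 bases before to 50 after the transcript start, build GRCm38.p6) were found for 33 of the 43 tested members. Ifi27 and Ifi27l2a, which rose in old samples as described below, were among those without an entry. The core of the interferon-stimulated response element, GAAANNGAAA read on both strands, stood in 19 of the 33 (57.6%), against 3.60% of the 9626 tested genes with a promoter and 3.99% of all 27025 in the table. The core of the gamma-activated site, TTCNNNGAA, which reads the same on both strands, stood in 12 of the 33 (36.4%), against 8.47% and 9.55%. The motifs can share letters, and a match describes the sequence without showing that a factor binds there. The 5 promoters below belong to the genes most often used as a readout of the response (Isg15, Ifit1), to the member with the highest level per exon length (Ifitm3) and to a pair of GTPases whose values set old 9 apart (Igtp, Irgm1). Capitals mark matches to either core on either strand, and a response element on the opposite strand reads as its reverse complement, as in Ifit1. They lie at chr4:156200769-156201068, minus strand (Isg15), chr19:34640639-34640938, plus strand (Ifit1), chr7:141010695-141010994, minus strand (Ifitm3), chr11:58199306-58199605, plus strand (Igtp) and chr11:48871371-48871670, minus strand (Irgm1).
Isg15: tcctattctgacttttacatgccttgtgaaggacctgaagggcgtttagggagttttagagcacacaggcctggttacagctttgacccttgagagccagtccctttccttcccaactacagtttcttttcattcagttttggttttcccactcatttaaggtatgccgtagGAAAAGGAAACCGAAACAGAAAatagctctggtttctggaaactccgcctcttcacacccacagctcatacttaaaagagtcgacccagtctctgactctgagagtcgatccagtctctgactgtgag
Ifit1: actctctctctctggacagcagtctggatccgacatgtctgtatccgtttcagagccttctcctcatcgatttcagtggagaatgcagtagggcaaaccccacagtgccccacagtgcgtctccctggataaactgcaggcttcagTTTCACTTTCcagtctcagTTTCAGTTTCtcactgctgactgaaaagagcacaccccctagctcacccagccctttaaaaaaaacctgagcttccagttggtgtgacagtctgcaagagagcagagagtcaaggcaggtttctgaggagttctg
Ifitm3: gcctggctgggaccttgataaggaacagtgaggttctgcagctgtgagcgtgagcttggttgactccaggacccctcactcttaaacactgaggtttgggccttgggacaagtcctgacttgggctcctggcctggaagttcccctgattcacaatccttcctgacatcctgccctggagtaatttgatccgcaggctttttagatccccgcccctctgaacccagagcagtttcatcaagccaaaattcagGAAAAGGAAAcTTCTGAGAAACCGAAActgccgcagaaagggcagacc
Igtp: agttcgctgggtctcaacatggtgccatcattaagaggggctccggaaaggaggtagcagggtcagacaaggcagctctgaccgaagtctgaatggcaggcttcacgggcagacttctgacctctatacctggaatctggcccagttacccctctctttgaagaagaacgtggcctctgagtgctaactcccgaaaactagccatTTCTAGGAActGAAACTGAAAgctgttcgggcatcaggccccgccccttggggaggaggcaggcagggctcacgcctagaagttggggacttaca
Irgm1: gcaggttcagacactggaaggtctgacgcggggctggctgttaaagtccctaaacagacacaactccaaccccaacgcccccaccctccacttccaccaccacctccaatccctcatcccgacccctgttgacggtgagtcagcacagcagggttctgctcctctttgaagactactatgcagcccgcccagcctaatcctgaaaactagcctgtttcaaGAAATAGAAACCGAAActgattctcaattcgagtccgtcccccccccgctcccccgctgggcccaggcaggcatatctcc
Isg15 held 3 overlapping response element matches and Ifit1 held 2 separate ones, all upstream of the start. Ifitm3 held 2, both just past the start, the second sharing letters with a gamma-activated site match. Igtp held 1 of each motif side by side, and Irgm1 held 2 overlapping response element matches. All 5 GTPase members with a promoter entry held the response element core, as did 3 of 4 sensors, 3 of 4 membrane restriction factors and none of the 2 interferon regulatory factors, Irf1 and Irf7.

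Old and young were compared in every gene with limma on log2(normalized count + 1), with Benjamini-Hochberg adjustment over all 12777 genes and a threshold of 0.05. A normalized count is the number of reads in a gene divided by one size factor per sample, and a log2 fold here is old minus young. Each sample held between 25809499 and 40393814 reads in genes. The endothelial markers summed to between 765391 and 1045578 in old and between 902015 and 1055187 in young samples, with 1 of the 12 lower in old and none at 0. Transcript values fell with GC content in old 9 (a log2 slope of -0.18 per 10 percentage points of GC), young 9 (-0.16) and old 7 (-0.08), against slopes of -0.02 to 0.13 in the other 9 samples. In bulk RNA, fewer cells of a type and less RNA per cell cannot be told apart.

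The share of interferon-stimulated genes called with age was near that of all genes. Of the 43 tested, 2 rose in old samples, Ifi27l2a and Ifi27, and 0 fell by limma. That is 4.65% of the members, against 6.94% of all genes tested (3.73% higher and 3.21% lower). At an unadjusted p under 0.05 limma gave 3 of 43 members (6.98%) against 23.8% of all genes, the third being Samd9l, which was lower in old. edgeR on the recovered reads also called 2 members higher and 0 lower, and DESeq2 called 3 higher, Mx1 being the third, which could enter only through its old samples, and 0 lower. Outside Ifi27l2a and Ifi27, then, each count of 0 given by role below is 0 by limma and edgeR alike, with Samd9l the one gene at an unadjusted p under 0.05 by limma and Mx1 the one call of DESeq2. The median log2 fold of the members was 0.00 (0.0046), beside -0.01 over all genes, with 22 members above 0 and 21 below. The median size of a member's fold, regardless of sign, was 0.19, against 0.23 over all genes. For 37 of the 43 the 95% confidence interval lay within 1 log2 unit either way, so a 2-fold change was outside it. The same held for 9218 of all 12777 genes. The ages did not overlap in 2 members, both higher in old, where 2.18% of all genes had every old sample above every young one and 2.11% every old sample below.

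**Figure D1:**
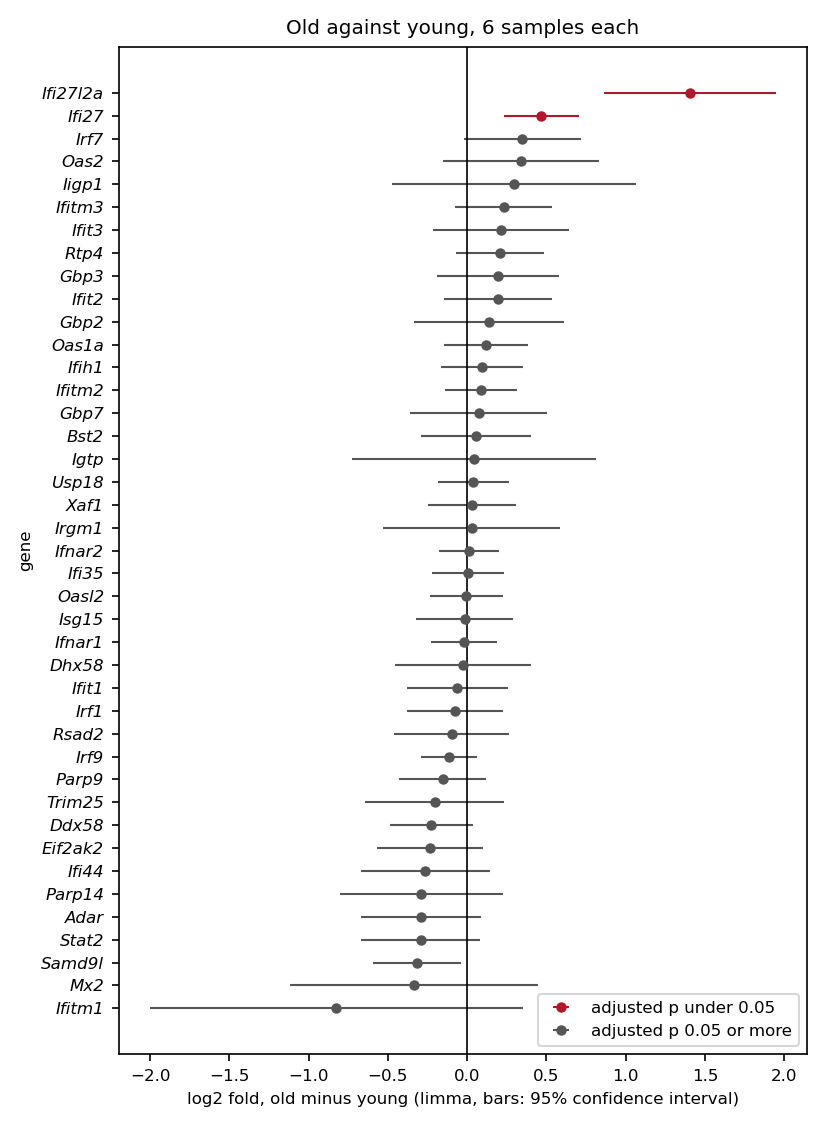
Log2 fold of old against young (horizontal axis, limma, n = 6 samples an age) for 41 of the 43 tested interferon-stimulated genes (vertical axis); points are estimates, bars are 95% confidence intervals and red marks an adjusted p under 0.05. Ifi27l2a at 1.40 and Ifi27 at 0.47 lie to the right of 0 with intervals that exclude it, while Oas3 and Cxcl10, whose intervals are wider than 2.5, are left out of the plot.

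Ifi27l2a, a small hydrophobic protein of the IFI27 family, had the largest change among the members. Its normalized count was 588 at the lowest, 767 at the median and 1993 at the highest in old samples, and 265, 344 and 386 in young samples. The highest value belonged to old 2 and the next to old 9 (1049.9), and even the lowest old sample, old 1, lay above the highest young sample, young 9. The mean was 962 ± 537 in old and 331 ± 48.3 in young (SD, n = 6 each), a log2 fold of 1.40 with a 95% confidence interval from 0.86 to 1.95 (limma adjusted p = 0.00405; edgeR adjusted p = 0.00404). Without old 2 the log2 fold was 1.16 (limma adjusted p = 0.00267), and the gene passed in 29 of 30 alternative settings.

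Ifi27, which encodes a relative found in mitochondria of human cells, rose less and from a higher level. Its normalized count was 4781, 5348 and 7061 (lowest, median, highest) in old and 3548, 3974 and 4596 in young samples. Old 9 and old 7 were highest, and the lowest old sample, old 4, was above the highest young one, young 3. The mean was 5615 ± 902 in old and 4035 ± 403 in young (SD, n = 6 each), a log2 fold of 0.47 with an interval from 0.23 to 0.70 (limma adjusted p = 0.0186; edgeR adjusted p = 0.0203). This call passed in 24 of 30 settings and was lost without young 4 (limma adjusted p = 0.0505) and without old 7, old 9 and young 9 together (0.35, limma adjusted p = 0.0524). Xaf1, a gene tied to cell death and the remaining member of that group, had a log2 fold of 0.03. How reads shared by close copies were counted is not given in the sources used here, which leaves the levels of Ifi27, Ifi27l2a, Oas1a, Ifit3 and the guanylate-binding genes uncertain to that extent.

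Markers of other cell types stood beside both rises. The 17 microglia and macrophage markers summed to 1552, 1770.2 and 2591 (lowest, median, highest) in old and 1377, 1509 and 1758 in young samples, with 13 tested, 0 past the threshold and none at 0 throughout. Old 2 was highest in that sum, as it was in Ifi27l2a. With a microglia score as a term, the log2 fold of Ifi27l2a was 1.40 (limma adjusted p = 0.00152) and that of Ifi27 was 0.47 (limma adjusted p = 0.0251). The 9 astrocyte markers summed to 10555, 19973 and 42984 in old and 5356, 7669.7 and 36008 in young samples, with 1 of 9 higher in old and none at 0. With an astrocyte score as a term, Ifi27l2a had a log2 fold of 1.25 and Ifi27 one of 0.48, and neither passed (limma adjusted p = 0.0808 and 0.143). The 12 pericyte and smooth muscle markers summed to 1265, 2674 and 12119 in old and 2846, 7869 and 18654 in young samples, with 2 of 12 lower in old and none at 0. With that score as a term Ifi27l2a passed (1.45, limma adjusted p = 0.0394) and Ifi27 did not (0.37, limma adjusted p = 0.205).

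**Figure D2:**
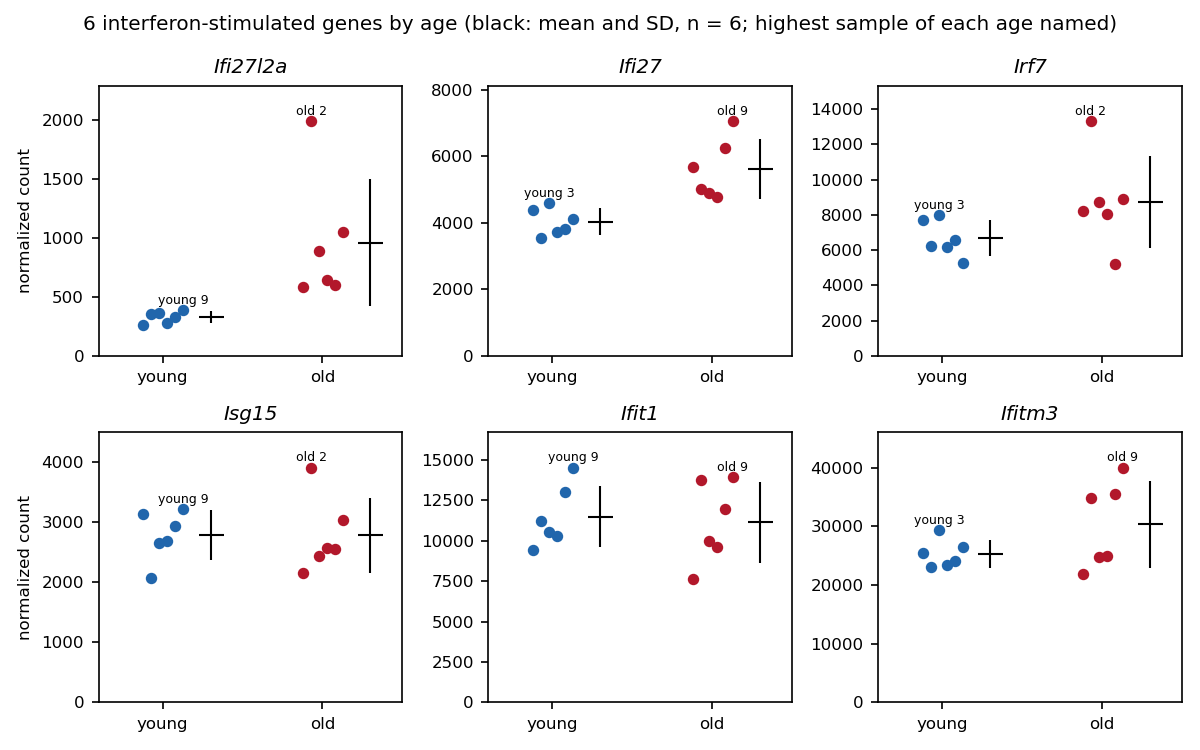
Normalized count (vertical axes, from 0) of 6 interferon-stimulated genes in young (blue) and old (red) samples; each point is a sample, black bars are the mean and SD of 6, and the highest sample of each age is named. The ages separate in Ifi27l2a and Ifi27, and overlap in Irf7, Isg15, Ifit1 and Ifitm3.

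The receptor and its immediate signal did not pass in any of 4 members. Ifnar1 and Ifnar2, the subunits of the receptor for interferon alpha and beta, had log2 folds of -0.02 and 0.01. Stat2, which carries the signal to the nucleus, ran from 1917 through 3674 to 4349 in old and from 3364 through 4135 to 5040.5 in young samples. Old 7 stood below the rest and the ages overlapped. Its means were 3489 ± 874 and 4186 ± 688 (SD, n = 6 each), a log2 fold of -0.29 (interval -0.67 to 0.08, limma adjusted p = 0.326). Irf9, the DNA-binding partner, had 6783, 7429.8 and 8604 in old and 7405, 8079 and 8569 in young samples, with a log2 fold of -0.11 (limma adjusted p = 0.425). Old 9 was the highest of 12 for Irf9 and old 1 the lowest.

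The interferon regulatory factors differed from each other. Irf7, which drives transcription of the interferon alpha genes, had 5218, 8465 and 13322 (lowest, median, highest) in old and 5293, 6427 and 8006 in young samples. Old 2 stood well above the others, old 7 was the lowest of 12, and 5 of 6 old samples lay above the young median. Its means were 8741 ± 2613 and 6682 ± 1021 (SD, n = 6 each), a log2 fold of 0.35 with an interval from -0.02 to 0.72 (limma adjusted p = 0.235). Irf1, a factor downstream of interferon gamma, had 5697, 6342 and 11067 in old and 6751, 7016 and 8153 in young samples. Old 9 was highest in Irf1, above a next old value of 7204, and 4 of 6 old samples lay below the young median. Its log2 fold was -0.08 (limma adjusted p = 0.773).

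The sensors of foreign or edited RNA gave 0 of 5 past the threshold, with 4 of 5 folds below 0 and a median of -0.23. Ddx58, the RNA sensor RIG-I, had 3052, 3945 and 4941 in old and 3879, 4296 and 5612 in young samples. Old 7 was lowest and young 5 highest, and 5 of 6 old samples lay below the young median. Its means were 3899 ± 661 and 4539.7 ± 633 (SD, n = 6 each), a log2 fold of -0.23 (interval -0.49 to 0.04, limma adjusted p = 0.277). Adar, which edits adenosine in double-stranded RNA, had 2961, 5809 and 6598 in old and 5194, 6263 and 7459.96 in young samples. The pair of low old values were old 9 and old 7, and the log2 fold was -0.29 (interval -0.67 to 0.09, limma adjusted p = 0.339). The kinase Eif2ak2, which halts translation, had -0.24, Dhx58, a relative of RIG-I, -0.02, and the sensor Ifih1 0.10.

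Among the oligoadenylate synthetases, which make the signal that activates RNase L, 0 of 4 passed. Oas2 had 979.66, 1473 and 2472 in old and 854, 1079 and 1923 in young samples. Old 2 was highest and old 9 the lowest old sample, and the ages overlapped over most of their range. Its log2 fold was 0.34 (interval -0.16 to 0.83, limma adjusted p = 0.393). Oas1a had 1943, 2307 and 2889.9 in old and 1748, 2154 and 2560.2 in young samples, again with old 2 highest, and a log2 fold of 0.12 (limma adjusted p = 0.591). Oasl2 had -0.00 (-0.0042). Oas3 was near the floor, with 33 reads in old and 77 in young samples and 6 of the 12 samples at 0, so its fold of -1.18 (interval -3.99 to 1.64) carries little information.

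The IFIT proteins, which bind viral RNA, viperin (Rsad2) and Mx2 gave 0 of 5 tested past the threshold. Ifit3 had 5283, 7133 and 13364 in old and 5489.7, 6597 and 9692 in young samples. Old 2 and old 9 were high among the old and young 9 among the young, and the ages overlapped. Its log2 fold was 0.21 (interval -0.22 to 0.64, limma adjusted p = 0.550). Ifit2 followed the same order, with 2004, 2519.6 and 3714 in old and 1857, 2316 and 3021 in young samples and a log2 fold of 0.19 (limma adjusted p = 0.488). Ifit1 had 7628, 10957 and 13927 in old and 9397, 10866 and 14504 in young samples, and Rsad2 had 4616, 5995 and 9206 against 5428, 6686 and 8613. In Ifit1 young 9 was the highest of 12 and old 1 the lowest, and the log2 folds were -0.06 for Ifit1 and -0.10 for Rsad2. Mx2, an antiviral GTPase at a much lower level (88.6 ± 41.7 in old, 110.5 ± 56.0 in young, SD, n = 6 each), had -0.33.

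Mx1, of which C57BL/6 mice carry a defective allele, lay below the minimum mean and was not in the main limma fit. Its normalized counts were 12.4, 39.2, 9.78, 0, 0.77 and 0.86 in old 1, 2, 3, 4, 7 and 9, from 58 reads in all, and 0 in every young sample. The reads lay almost entirely in old 1, old 2 and old 3. With the young samples set at the 3 reads that a count of 0 allows over the group, the observed old mean was 20.2 times the young mean. Without old 2 it was 9.16 times. The reads carry no molecular identifiers. These ratios cover counting error in the young samples only, and the old mean, from 58 reads, enters as observed. They leave out the spread among the old samples, of which old 4, old 7 and old 9 lay at 0, 0.77 and 0.86. With no filter on low values limma gave Mx1 a log2 fold of 2.37, and it did not pass there.

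ISG15, a ubiquitin-like protein attached to other proteins, and its regulators gave 0 of 3 past the threshold. Isg15 had 2148, 2562 and 3901 in old and 2072, 2806 and 3213 in young samples. Old 2 was high, the other old samples lay within the young range, and the log2 fold was -0.02 with an interval from -0.32 to 0.29 (limma adjusted p = 0.963). Usp18, which removes ISG15 and damps the receptor, had 3605, 4189.9 and 5279 in old and 3850.2, 4139 and 4634 in young samples and a log2 fold of 0.04 (limma adjusted p = 0.854). Trim25, the ubiquitin ligase that activates RIG-I, had 2047, 3112 and 4556 in old and 2266, 3776 and 4167 in young samples, a log2 fold of -0.20 (limma adjusted p = 0.579). In Trim25 old 1, old 7 and young 1 were low and the ages overlapped throughout.

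The membrane restriction factors, which hold back viral entry or release, gave 0 of 4 past the threshold. Ifitm3 was the most abundant member per exon length, at 37273 ± 3457 normalized counts per kilobase in young and 44715 ± 10868 in old samples (SD, n = 6 each). Its normalized counts were 21935, 29872 and 39972 in old and 22977, 24799 and 29283 in young samples. Old 9, old 7 and old 2 lay above every young sample and old 1 below every one, a log2 fold of 0.23 with an interval from -0.07 to 0.54 (limma adjusted p = 0.344). Ifitm1, at low level, had 13.7, 18.8 and 106 in old and 26.1, 45.5 and 141 in young samples. Old 2 and young 4 were high, and the log2 fold of -0.82 had a standard error of 0.55 (limma adjusted p = 0.383). Ifitm2 had 0.08 and Bst2, also called tetherin, 0.05.

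**Figure D3:**
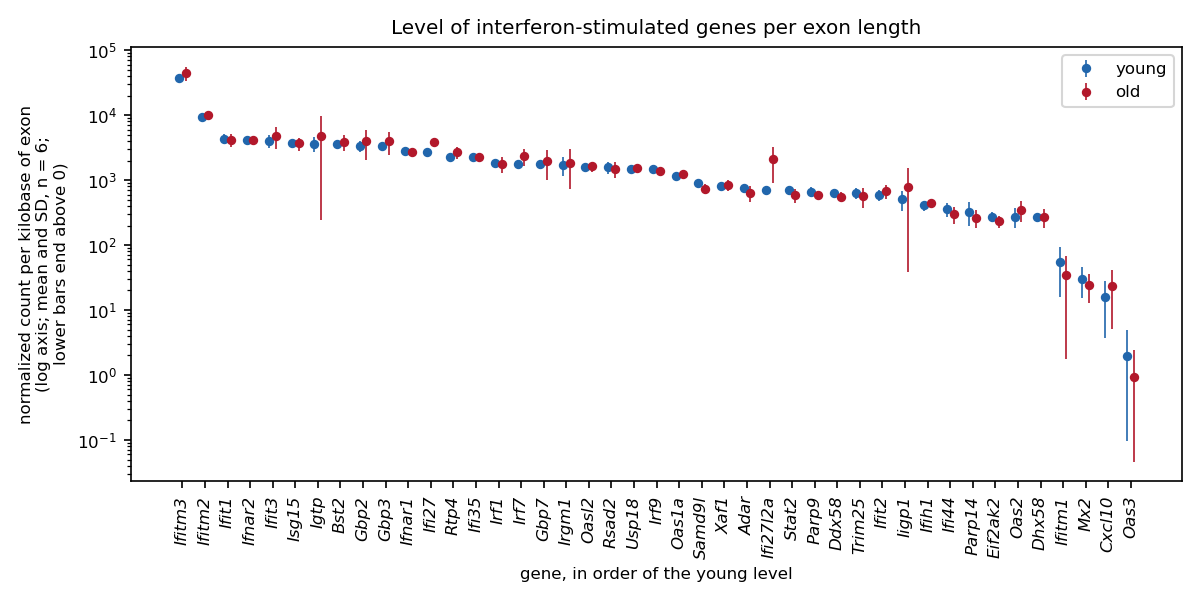
Normalized count per kilobase of exon (vertical axis, log scale) of the 43 tested interferon-stimulated genes in order of the young level (horizontal axis), with the mean and SD of 6 young (blue) and 6 old (red) samples; lower bars longer than the mean are cut short above 0. In young samples the levels run from 37273 for Ifitm3 to 1.95 for Oas3, and Ifi27l2a (714 in young, 2078 in old) is the widest step between the ages among the genes above the 4 lowest, Ifitm1, Mx2, Cxcl10 and Oas3, whose bars are long.

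The GTPases stood apart by sample, not by age. These are the guanylate-binding proteins Gbp2, Gbp3 and Gbp7 and the immunity-related GTPases Igtp, Irgm1 and Iigp1, which act on the vacuoles of intracellular microbes and are strongly induced by interferon gamma. Limma called 0 of 6, with log2 folds from 0.03 to 0.29. Gbp3 had 9177, 10541 and 22074 in old and 9289, 10798 and 12354 in young samples (log2 fold 0.20, limma adjusted p = 0.538). Iigp1 had 2002, 2922 and 13268 in old and 2257, 2708 and 5026 in young samples (log2 fold 0.29, limma adjusted p = 0.658). The highest value of both was old 9, and the highest young value was young 9.

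That order held in 6 of 6 GTPase members, a grouping made after their values were seen. Igtp was 30065 in old 9 and between 4606 and 6799 in the other 5 old samples, and 10839 in young 9 and between 5826 and 8209 in the other 5 young ones. Irgm1 was 23845 in old 9 against 6965 to 9520.2 in the other old, and 16135 in young 9 against 7973 to 9543 in the other young samples. Old 9 was from 2.14 (Gbp3) to 5.26 times (Iigp1) the median of the other old samples, and young 9 from 1.22 (Gbp3) to 1.94 times (Irgm1) that of the other young samples. Without old 9, 5 of the 6 log2 folds fell below 0, with a range from -0.36 to 0.03, and without both samples numbered 9 the range was -0.24 to 0.07 with 3 below 0. Old 9 and young 9 also had the steepest negative GC slopes of the 12. The GC content of the 6 transcripts ran from 39.3% (Iigp1) to 49.5% (Igtp), beside a mean of 49.7% over tested genes. In old 9 Iigp1 was 5.26 times and Igtp 5.24 times the median of the other old samples. Old 7, with a slope of -0.08, had a mean GTPase deviation of 0.01 log2 units, against 1.43 in old 9 and 0.48 in young 9. The part of GC content in these values was not tested. The 10 lymphocyte and other leukocyte markers summed to 8.07, 29.3 and 274 (lowest, median, highest) in old and 27.7, 69.8 and 146 in young samples, with 76.2 in old 9 and 37.3 in young 9. Of these 10, 3 were tested and 0 passed by limma, and Cd3e, Cd3d and Cd8a had no reads in any sample. The part of such cells in the GTPase values was not tested.

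**Figure D4:**
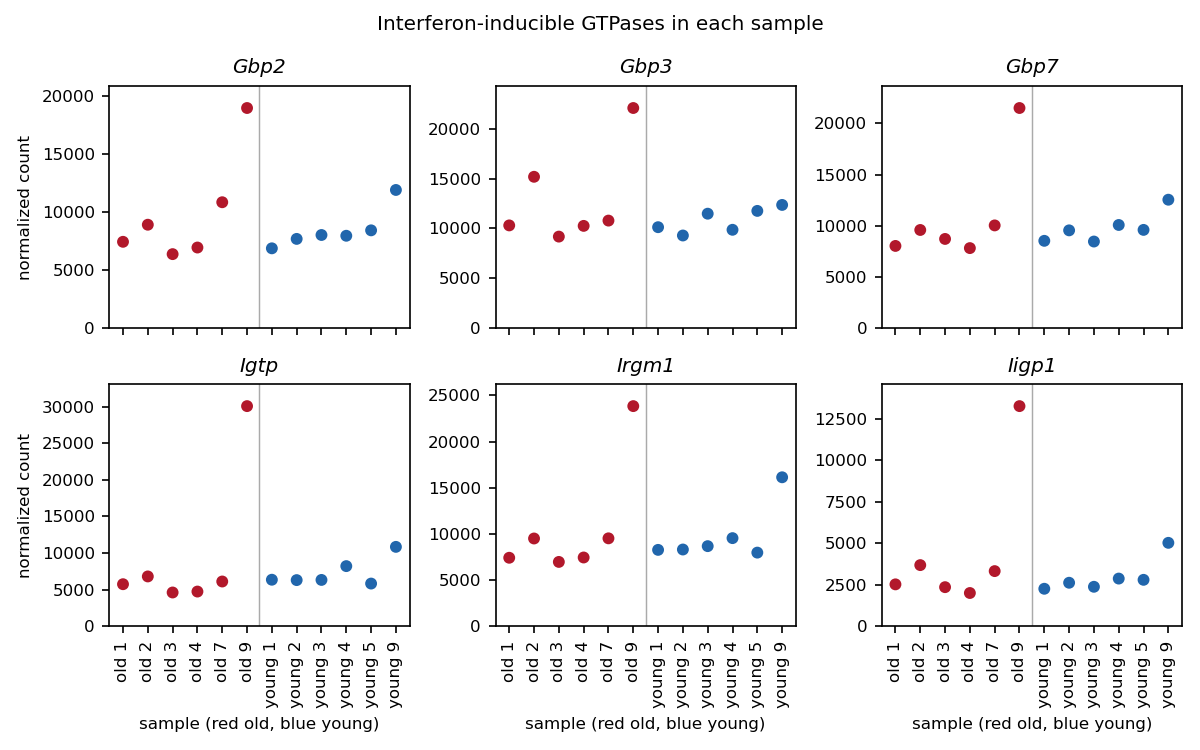
Normalized count (vertical axes, from 0) of 6 interferon-inducible GTPases in each old (red) and young (blue) sample (horizontal axis). Old 9 is the highest point in every panel, from 13268 in Iigp1 to 30065 in Igtp, and young 9 is the highest of the young.

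Of the 7 other induced genes 0 passed. Samd9l, a restraint on cell growth and viral replication, had 3087, 3859.7 and 4913 in old and 3967, 5099.6 and 5789 in young samples. Old 7 and old 1 were lowest, young 5 was highest, and none of the 6 old samples reached the young median. Its log2 fold was -0.32 with an interval from -0.59 to -0.04 (unadjusted p = 0.0288, limma adjusted p = 0.154). Rtp4, which helps receptors reach the membrane, had 4276, 5658 and 7091 in old and 4453, 4677 and 5925 in young samples, with old 9, old 7 and old 2 above every young value. Its log2 fold was 0.21 (interval -0.07 to 0.49, limma adjusted p = 0.343). The ADP-ribosylating enzymes Parp14 and Parp9 had -0.29 and -0.16, Ifi44 -0.26 and Ifi35 0.00 (0.0046). Cxcl10, a chemokine that draws in T cells, was low, from 0 in old 7 to 95.7 in old 2 among the old and from 6.70 in young 9 to 77.2 in young 3 among the young, with a log2 fold of -0.21 and an interval from -2.44 to 2.02.

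Samples of an age differed in which members were high. A score, the mean over the 43 members of each log2 value minus its gene mean over the 12 samples, was -0.33, -0.03 and 0.36 (lowest, median, highest) in old and -0.20, 0.07 and 0.14 in young samples. Old 2 (0.36) and old 9 (0.31) were highest of all and old 1 (-0.33) and old 7 (-0.32) lowest, so the old samples enclosed the young ones in this score. Low genes count in full in it: Cxcl10 was 0 in old 7, and Oas3 was 0 in old 1, 4, 7 and 9 and in young 1 and 2. A score of the members without these low genes was not made. The mean score was -0.01 ± 0.31 in old and 0.01 ± 0.15 in young (SD, n = 6 each). Without Ifi27 and Ifi27l2a the mean scores were -0.03 ± 0.31 and 0.03 ± 0.16.

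Old 2 and old 9 differed in some roles and were alike in others. A gene has a single highest sample, so their counts below cannot share a member. Old 9 was the highest of 12 in 16 members, among them all 6 GTPases and Irf1. Old 2 was the highest of 12 in 10 members, among them Ifi27l2a, Irf7, Oas1a, Oas2, Ifit2, Ifit3, Isg15 and Usp18, and in 0 of 6 GTPases. Young 5 was the highest of 12 in 8, among them the sensors Ddx58 and Eif2ak2 with Adar. The mean deviation of the synthetases other than Oas3 was 0.51 in old 2 and 0.05 in old 9 (0.85 and -0.47 with Oas3, which is near the floor), and the GTPase score was 0.08 in old 2 and 1.43 in old 9. The scores of the sensors (0.24 and -0.10) and membrane restriction factors (0.56 and -0.02) also differed. Both samples were above 0 for the IFIT, viperin and MX effectors (0.37 in old 2 and 0.47 in old 9). The same held for the interferon regulatory factors (0.28 and 0.45) and for the IFI27 family with Xaf1 (0.73 and 0.63). The coefficient of variation was larger in old than in young samples in 36 of 43 members (83.7%), beside 65.0% of the 12775 genes with a value in both ages. Without both samples numbered 9 it was larger in 33 members, beside 64.4% of all genes.

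**Figure D5:**
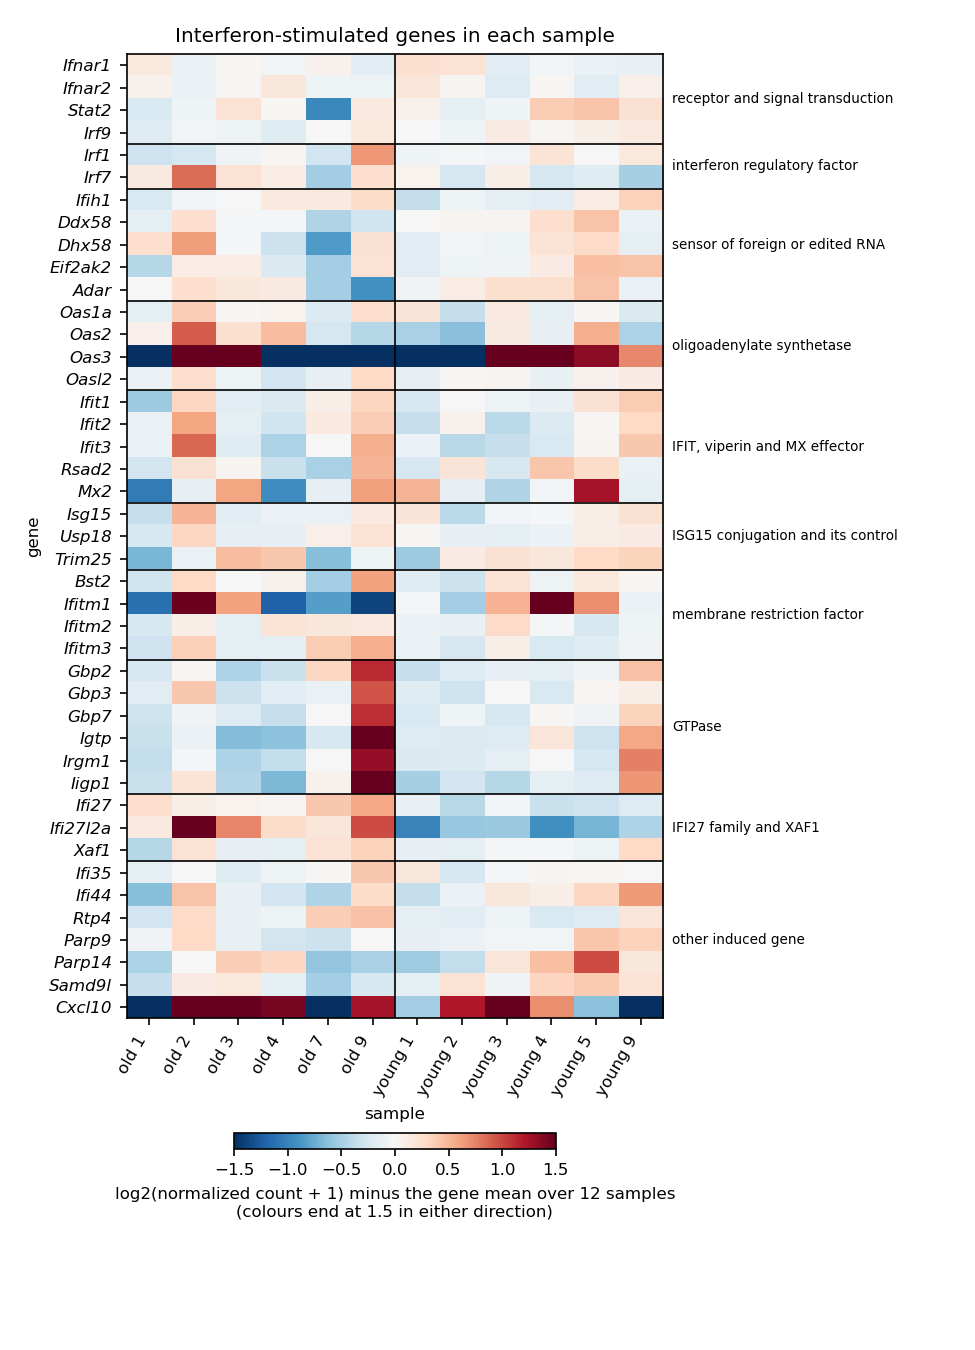
Each tested interferon-stimulated gene (rows, grouped by role) in each sample (columns, old left and young right of the line), coloured by log2(normalized count + 1) minus the gene mean over 12 samples, with colours ending at 1.5 either way. Old 9 is red across the 6 GTPases, old 2 across Irf7, Oas2, Ifit3 and Ifi27l2a, and in Ifi27l2a and Ifi27 each old sample lies above each young one.

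Other genes of the pathway were taken from a list of 100, of which 97 matched the table and 79 were tested. Limma called 9 higher and 2 lower, 13.9% of those tested beside 6.94% of all genes, while 25.3% had an unadjusted p under 0.05 beside 23.8%, with a median log2 fold of -0.01. The list was chosen with earlier results of these data known, so its share of calls is a description only. The count called, 11, ran from 4 with the mural (pericyte and smooth muscle) score as a term to 14 by DESeq2. The interferon ligands were close to absent, with Ifnb1, Ifna1, Ifna2, Ifna4, Ifng, Ifnl2, Ifnl3 and Ifne at 0 reads in every sample and Ifnk at 11 reads in old and 4 in young samples. None of the 10 other receptors, kinases and STATs passed by limma, edgeR or DESeq2, and 0 had an unadjusted p under 0.05 by limma. The log2 folds were -0.09 for Jak1, -0.25 for Tyk2, 0.00 (0.0024) for Ifngr1, -0.08 for Ifngr2 and 0.09 for Irf3, the factor that starts interferon transcription.

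Among the pathway genes with the smallest p were Apol9a, Apol9b and Ifi203, which rose, and Irf5 and Trim24, which fell. Apol9a and Apol9b, a pair of close copies of apolipoprotein L known to be induced by interferon, rose together. Apol9b had 359, 606 and 1129 in old and 103, 139 and 225 in young samples, a log2 fold of 2.00 (interval 1.45 to 2.55, limma adjusted p = 0.000480). Apol9a had 107, 235 and 361 in old and 21.3, 32.8 and 50.4 in young samples, a log2 fold of 2.57 (limma adjusted p = 0.000480). Old 2 was highest in both and the ages did not overlap in either, as in Ifi27l2a. Reads may be split between these copies, so their separate values are uncertain.

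Ifi203, a nucleic acid-binding protein of the PYHIN family, had 394, 506 and 600.30 in old and 190.28, 229 and 280.25 in young samples, a log2 fold of 1.08 (limma adjusted p = 0.000874). Every old sample was above every young one. Irf5, a factor for inflammatory cytokines, fell, with 353, 419 and 521 in old and 590.40, 686 and 832 in young samples and a log2 fold of -0.69 (limma adjusted p = 0.00633). Trim24, a nuclear cofactor that restrains interferon signalling in mouse liver, had 1102, 1278 and 1373 in old and 1520.5, 1657 and 1837 in young samples, a log2 fold of -0.40 (limma adjusted p = 0.0162). In both of these every old sample lay below every young one. With the astrocyte or the mural (pericyte and smooth muscle) score as a term, Irf5 had log2 folds of -0.66 and -0.52 and did not pass (limma adjusted p = 0.0911 and 0.115). Trim24 had -0.34 and -0.46 and did not pass (limma adjusted p = 0.243 and 0.0613). Apol9a, Apol9b and Ifi203 passed with either term. Their limma adjusted p was 0.00904 and 0.0138 for Apol9a, 0.00223 and 0.0146 for Apol9b, and 0.0206 and 0.0286 for Ifi203. All genes called went from 887 to 233 and 239 with these terms.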

How the data were processed

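RNA-seq of 12 samples was deposited by the authors as one table, in which each value is a signal per gene: whole reads divided by one size factor per sample. After division by the step of each column 100% of values were whole within 0.001, and the factors equalled median-of-ratios factors in 12 of 12 samples. The submitters' processing notes list mm9, STAR 2.4.2a, FastQC 0.11.2, R 3.2.2 and Cuffdiff 2.2.1 without roles, and no counting tool or annotation is given in the sources used here. Recovered reads ran between 25809499 and 40393814 and carry no molecular identifiers.

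From these values, log2(value + 1) was tested with limma 3.58.1 (R 4.3.3; mean-variance trend; Benjamini-Hochberg over 12777 genes with a mean of at least 10; threshold 0.05), after a trial on simulated data. For low genes a fold on this scale can be smaller or larger than on the reads, or differ in sign. The log2 fold by limma and by edgeR was 2.57 and 2.68 for Apol9a, 3.04 and 2.67 for Gbp8, and -0.21 and 0.54 for Cxcl10. On the recovered reads edgeR 4.0.16 called 761 genes and DESeq2 1.42.0 called 1407, against 887 by limma. Further alternatives were the pseudocount, filter, scaling, variance model, sample weights, marker scores, title number and omitted samples. Reads of samples of one age always differed beyond counting noise (lowest chi-square per degree of freedom 35.5). Exon lengths came from GENCODE vM21, and promoters from RefSeq.

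The members and lists were chosen with earlier results of these data known. Members past the threshold are given in full, then the 2 with the smallest p in each role, and of the pathway list up to 6 called genes plus a set of upstream genes that includes Jak1, Tyk2, Irf3, Ifngr1 and Ifngr2; some results of the pathway list are not reported here. Other values, such as those of Isg15, Ifit1, Igtp, Irgm1 and Mx1, were added after being seen.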

Additional observations from a re-analysis of the deposited data

Results flagged for a closer look

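Within each age, the highest or lowest sample of a member was set against the others: it is listed here where its gap to the nearest sample on the scale log2(normalized count + 1), as a share of the range of the 6, passed Dixon's 95% critical value. Of 86 groups tested, 12 were listed, where chance gives about 4.3 (1 in 20). The share listed over all tested genes was not computed, so these counts do not set the members apart from other genes. Values are normalized counts, and 6 of the 12 belong to old 9 and 5 to young 9.

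In old 9, Irf1 was 11067 beside 5697 to 7204 in the other old samples, Gbp7 was 21510 beside 7819 to 10036, and Igtp was 30065 beside 4606 to 6799. Irgm1 was 23845 beside 6965 to 9520.2, Iigp1 was 13268 beside 2002 to 3683, and Ifi35 was 5147 beside 3418 to 3924.

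In young 9, Gbp2 was 11886 beside 6865 to 8412 in the other young samples, Irgm1 was 16135 beside 7973 to 9543, and Iigp1 was 5026 beside 2257 to 2872. Xaf1 was 4761 beside 3506 to 3833, and Rtp4 was 5925 beside 4453 to 4953. In young 1, Trim25 was 2266, the one low value, beside 3595 to 4167. On the counts themselves 17 gaps passed, the 5 others being Gbp2 in old 9, Ifi27l2a in old 2, Oas3 and Ifitm1 in young 4, and Ifitm2 in young 3.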

How the results depend on the processing

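The count of members lower in old was 0 in each of the 30 alternatives. The count of members higher in old, 2, became 1 (Ifi27l2a alone) with the mural score as a term and without old 7, old 9 and young 9, 0 with the astrocyte score, 3 by DESeq2, and 1 to 2 with each sample left out in turn. The median log2 fold of the members lay between -0.08 (without old 9) and 0.12 (quantile normalization). Deviations of same-numbered samples had correlations from -0.16 to 0.10. GC slopes in old and young were close for number 1 (0.13 and 0.11), 3 (0.04 and 0.05) and 9 (-0.18 and -0.16). They were less close for 2 (0.04 and -0.02) and 4 (0.02 and 0.06). The labels do not say whether a title number marks a shared batch, and the main fit did not pair the samples. With the replicate block over the 10 samples that share a number, 1 member passed, Ifi27l2a, and Ifi27 did not (0.42, limma adjusted p = 0.0541). In those 10 without the block, a setting added after seeing the data, 1 also passed (Ifi27: limma adjusted p = 0.0813). Pathway genes called, 11, were 7 with no filter, 6 under the block and 6 without it, 5 with the astrocyte score, 4 with the mural score, 7 without old 7, old 9 and young 9, and 7 to 12 with each sample left out (7 without old 1, old 2, old 7, old 9, young 4 or young 5). All genes called, 887, were 1380 with array weights, 1407 by DESeq2, 612 with the block and 473 without it in the same 10 samples, 233 with the astrocyte score, 239 with the mural score, and 553 (without young 4) to 1225 (without young 9) with each sample left out. Where a call was lost with fewer samples, fewer samples were tested; for the others the cause was not tested. The reads of Mx1, Oas3, Ifitm1, Mx2 and Cxcl10 were few, and the part of depth in their spread was not tested.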

Other observations

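A further 5 pathway genes past the threshold, named after their values were seen, all rose in old samples. Aim2, a sensor of DNA in the cytosol, had 198, 226 and 350.24 (lowest, median, highest) in old and 55.7, 137 and 146 in young samples (log2 fold 1.14, limma adjusted p = 0.0199), and the ages did not overlap. Tmem173, the adaptor STING, had 385, 503 and 604 in old and 243, 338 and 389 in young samples (0.58, limma adjusted p = 0.0447), and the ages overlapped by a single pair. The related genes Phf11b and Phf11d rose by 1.55 (limma adjusted p = 0.0276) and 0.64 (limma adjusted p = 0.0482). Of 30 alternative settings Aim2 passed in 27, Phf11b in 16, Tmem173 in 13 and Phf11d in 11. Leaving out a single sample of the 12 ended the call of Phf11b in 7 cases, of Tmem173 in 8, of Phf11d in 9 and of Gbp8, described next, in 6 (limma adjusted p from 0.0548 to 0.107). Old 1, old 2, old 7, old 9, young 4 and young 5 were among these samples for each of the 4 genes. With the astrocyte or the mural score as a term Aim2, Phf11b, Tmem173 and Phf11d did not pass. Their log2 folds were then 1.13 and 1.12 for Aim2, 1.42 and 1.06 for Phf11b, 0.53 and 0.40 for Tmem173, and 0.51 and 0.58 for Phf11d. Gbp8, a low guanylate-binding gene outside the members, had 403 in old 9, 41.4 to 197 in the other old and 0 to 56.9 in young samples (log2 fold 3.04, limma adjusted p = 0.0385; 2.73 without old 9, limma adjusted p = 0.0816). Gbp8 passed with the astrocyte score (4.61, limma adjusted p = 0.0176) and did not with the mural score (2.91, limma adjusted p = 0.198).

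Old 9 was also the highest of 12 in 7 of 8 GTPases of the pathway list, a group formed after seeing the values: Tgtp2 was 18894 beside 2523 to 4252 in the other old samples, and Gbp4 11524 beside 1991 to 3245. The exception was Gbp9, with 6279 in old 9 beside 4333 to 6840 in the other old samples. Young 9 was the highest of the young in 4 of the 8. In Gbp5, Gbp6, Gbp8 and Gbp9 it was 0.69, 0.80, 0 and 0.98 times the median of the other young samples. Zbp1, a sensor of nucleic acids in the Z form, was 1206 in old 9 and 680.38 in old 2, beside 191 to 248 in the other old samples.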
